A study of Mus musculus with 4 samples.

Results

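Hox genes encode the homeodomain transcription factors that give cells their place along the body axis. The members described here are all genes with a probe set annotated to exactly 1 symbol of the Hoxa, Hoxb, Hoxc or Hoxd series, which gave 31 protein-coding Hox genes and the antisense RNA gene Hoxa11os, 32 of 12393 genes named on the array. Each gene was represented by its probe set of highest mean signal. RNA came from 4 tumors, grown under the skin of nude (NCR Nu/Nu) mice from injected immortalized baby mouse kidney epithelial (iBMK) cells. The cells of every tumor were labelled as lacking Atg5, which autophagy requires, and as carrying Bcl-2, an inhibitor of cell death. The cells of 2 tumors expressed p62, an adaptor protein cleared by autophagy, fused to EGFP (p62-EGFP), and those of the other 2 tumors expressed the green fluorescent protein EGFP alone. The design text says that the p62-EGFP tumors came from isogenic cell lines. It names neither the promoter of the transgenes nor the number of clones or mice behind each group, so p-values measure the spread between these tumors only. Nude mice lack mature T cells of thymic origin but keep other leukocytes, vessels and stroma, and RNA of those host cells is part of each sample.

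In mammals the Hox genes lie in 4 clusters, named A to D, and are numbered from 1 to 13 by paralog group. Genes of low number are expressed early and towards the head, and genes of high number later and towards the tail, in limb ends and in the urogenital tract. In the mouse kidney the group 11 genes are needed for the metanephros to form, and the group 10 genes shape its stroma. Adult cells often keep the Hox code of the place they came from, held by Polycomb repression of silent genes and by trithorax proteins at active ones.

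The 4 sequences below are the promoters of 2 paralog pairs of clusters A and D, the clusters with the largest differences among the tumors. Hoxd9 had the smallest p of any Hox gene and is shown with its paralog Hoxa9, and Hoxa13 and Hoxd13 are the pair at the tail end of these clusters. Each is the 250 bases before the annotated start, read 5′ to 3′ on the gene's own strand, from RefSeq with build GRCm38.p6, and capitals mark CpG dinucleotides, the sites of DNA methylation. The Hoxa9 window is chr6:52227371-52227620 on the minus strand, and the Hoxd9 window is chr2:74697513-74697762 on the plus strand. The Hoxa13 window is chr6:52260881-52261130 on the minus strand, and the Hoxd13 window is chr2:74667975-74668224 on the plus strand.
Hoxa9 promoter: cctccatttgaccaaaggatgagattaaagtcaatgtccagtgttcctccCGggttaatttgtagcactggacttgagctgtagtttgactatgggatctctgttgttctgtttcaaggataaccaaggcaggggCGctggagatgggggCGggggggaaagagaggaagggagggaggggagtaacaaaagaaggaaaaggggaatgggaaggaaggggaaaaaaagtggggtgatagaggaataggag
Hoxd9 promoter: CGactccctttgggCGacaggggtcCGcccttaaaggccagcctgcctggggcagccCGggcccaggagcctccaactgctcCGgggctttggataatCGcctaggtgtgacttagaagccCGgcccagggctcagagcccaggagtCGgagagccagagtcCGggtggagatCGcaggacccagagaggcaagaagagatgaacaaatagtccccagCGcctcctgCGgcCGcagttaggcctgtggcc
Hoxa13 promoter: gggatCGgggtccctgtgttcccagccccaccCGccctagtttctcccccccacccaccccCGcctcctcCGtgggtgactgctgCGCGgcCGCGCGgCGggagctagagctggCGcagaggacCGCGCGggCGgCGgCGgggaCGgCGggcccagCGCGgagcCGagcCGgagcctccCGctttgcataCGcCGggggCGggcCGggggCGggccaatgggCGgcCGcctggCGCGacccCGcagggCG
Hoxd13 promoter: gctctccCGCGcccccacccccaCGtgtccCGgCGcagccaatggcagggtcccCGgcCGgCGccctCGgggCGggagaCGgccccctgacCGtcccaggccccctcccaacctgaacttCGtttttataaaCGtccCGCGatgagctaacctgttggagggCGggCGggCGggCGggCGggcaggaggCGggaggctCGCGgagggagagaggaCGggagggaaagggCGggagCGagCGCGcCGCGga

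The window of Hoxa9 held 3 CpG dinucleotides and that of Hoxd9 13, whereas Hoxa13 had 35 and Hoxd13 31. The ratio of observed to expected CpG was 0.266 for Hoxa9, 0.490 for Hoxd9, 0.875 for Hoxa13 and 0.901 for Hoxd13. Promoter sequences were given for 18 of the 31 genes, in 20 windows. Of these 20 windows 10 had a ratio above 0.6, against 34.0% of 32851 promoter windows of all genes. The windows were searched on both strands for 5 motifs. CCAAT, a general promoter element, was in 10 of the 20 windows, against 33.8% of all. TATAAA, the core of the TATA box, was in 2 (Hoxa10 and Hoxd13), against 12.4%, and TTTAT, a core bound by Cdx and posterior Hox proteins which can overlap TATAAA, was in 6, against 37.3%. TGATNNAT, a composite Pbx and Hox site, was in 3 (Hoxa2, Hoxb1 and Hoxd11), against 7.68%. The DR5 retinoic acid response element, searched without mismatches, was in 0 of the 20, against 0.00913%.

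The summed signals of cell type markers differed among the tumors. The 10 macrophage and myeloid markers, all measured, had a summed signal of 1624 and 1735 in p62-EGFP tumors 1 and 2, against 900.4 and 7264 in EGFP tumors 1 and 2. Skeletal muscle markers (8 of 8 measured) summed to 4022 and 41.9 in the p62-EGFP tumors, against 34.4 and 688 in the EGFP tumors. Epithelial markers, among them Krt8 and Krt18, summed to 2066 and 2808 in the p62-EGFP tumors, against 2035 and 1141 in the EGFP tumors, with 10 of 10 measured and 4 of the 10 at or below a signal of 50 in each tumor. NK and T cell markers (7 of 8 measured) summed to 70.5 and 70.2 in the p62-EGFP tumors, against 71.6 and 2107 in the EGFP tumors. No marker of these lists was at 0 in any tumor. Sqstm1, which encodes p62, read 1433 and 1688 in p62-EGFP tumors, against 976 and 1156 in EGFP tumors; whether its probe set detects the transgene was not tested. The brightest of the 3 Atg5 probe sets read above 50 in every tumor, at 91.3 and 93.9 in p62-EGFP tumors, against 119 and 103 in EGFP tumors. Bcl2 was dim, at 5.6 and 2.4 in p62-EGFP tumors, against 5.4 and 15.2 in EGFP tumors. Whether these probe sets lie in the deleted part of Atg5 or detect the introduced Bcl-2 was not tested, so the values do not check the labels. In bulk tumors, fewer cells of a type and less RNA per cell cannot be told apart.

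Of the 31 Hox genes, 17 had a mean signal above 50 in at least 1 group, which is 54.8%, against 60.9% of all genes on the array. Signals here are MAS5 values on a linear scale, where probe sets of different genes bind with different strength, so levels are compared between tumors and not between genes. Cluster A had 6 of 9 measured genes above 50, cluster B 2 of 9, cluster C 4 of 6 and cluster D 5 of 7. By position, 3 of 9 genes of groups 1 to 4 passed this level, 5 of 9 of groups 5 to 8 and 9 of 13 of groups 9 to 13. None of the 2 measured genes of group 1, the 2 of group 7 or the 1 of group 12 passed it. Nearest above the threshold were Hoxa13 (a highest group mean of 63.8), Hoxa3 (72.25) and Hoxc4 (95.05), and nearest below it Hoxb9 (46.95), Hoxb3 (42.35) and Hoxd12 (36.05). The reference lists 39 Hox genes, and the other 8 were not analysed here.

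**Figure D1:**
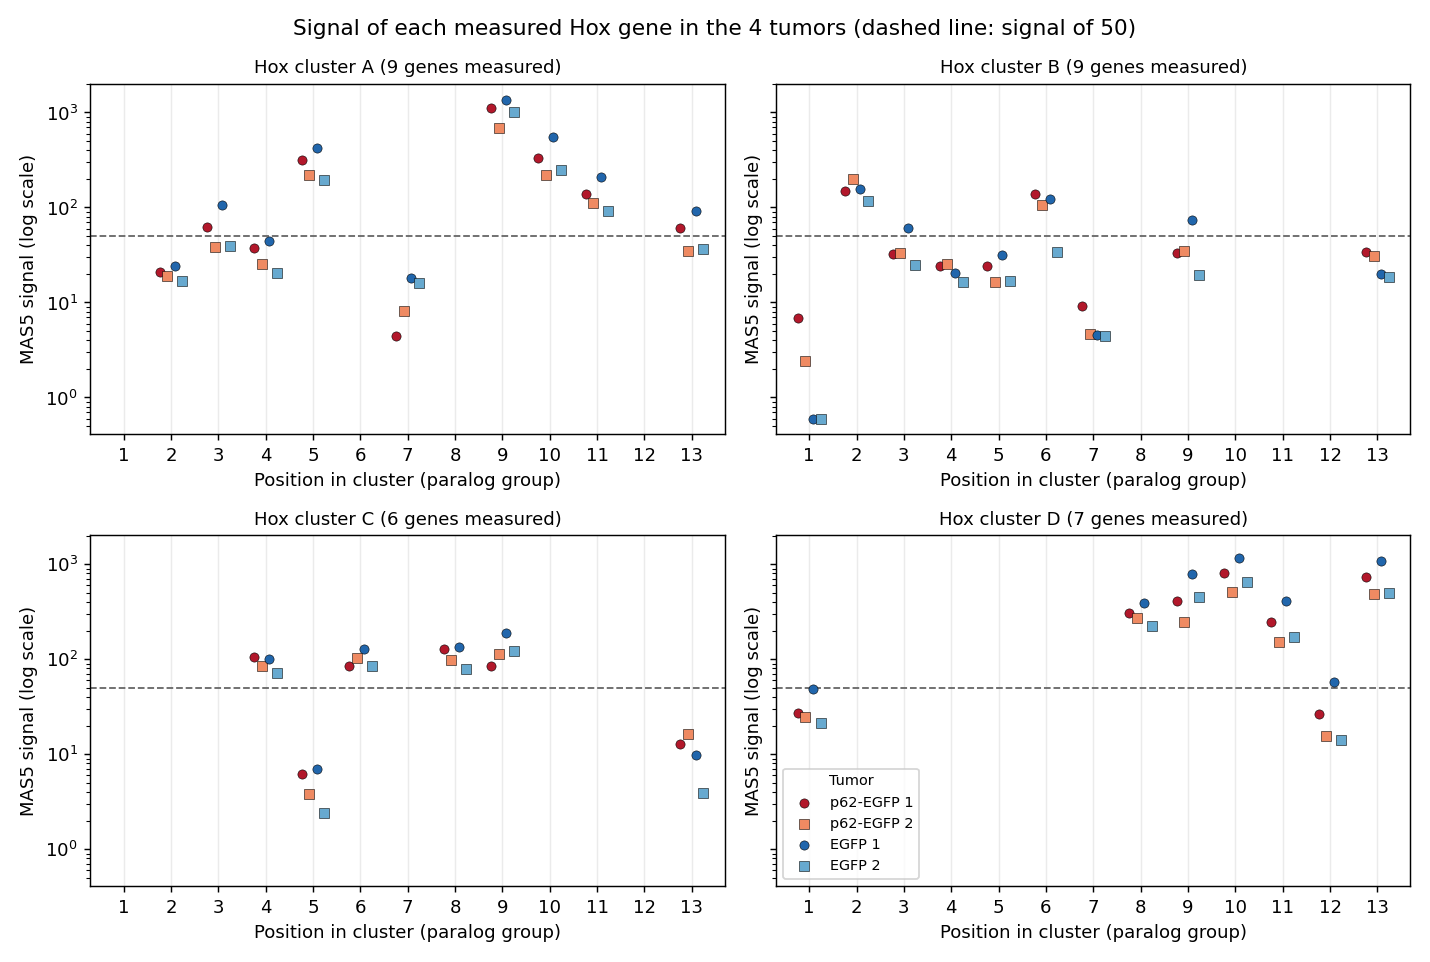
Signal of the 31 measured Hox genes in each tumor, by cluster (panels) and position (horizontal axis), on a logarithmic vertical axis; circles are tumors numbered 1 and squares tumors numbered 2, in red for p62-EGFP and blue for EGFP, and the dashed line marks a signal of 50. The genes of clusters A and D from position 8 upwards lie above the line except Hoxa13 and Hoxd12, which straddle it, and their blue circle (EGFP tumor 1) is the highest point.

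Cluster D genes were highest in EGFP tumor 1. Hoxd9, which acts with Hoxa9 in the upper limb, read 411 and 248.7 in p62-EGFP tumors 1 and 2, against 797 and 452 in EGFP tumors 1 and 2. The groups did not overlap (difference of mean log2(signal + 16) -0.88, SE 0.35, n = 2 each), and the difference did not pass the test over all probe sets (limma, Benjamini-Hochberg adjusted p = 0.346). It was the smallest adjusted p of any Hox gene. Hoxd10, a gene of limb and spinal cord patterning, read 805 and 506 in p62-EGFP tumors, against 1153 and 653 in EGFP tumors. Hoxd11, which with Hoxa11 is required for kidney and forearm development in mice, read 248 and 152, against 414 and 173. Hoxd13, which patterns digits and the genital tract, read 737 and 483 in p62-EGFP tumors, against 1094 and 492 in EGFP tumors. For Hoxd10, Hoxd11 and Hoxd13 the groups overlapped: EGFP tumor 1 was highest, p62-EGFP tumor 1 came next, and EGFP tumor 2 lay between the p62-EGFP tumors. Hoxd8, expressed along the trunk, read 308 and 270.1 in p62-EGFP tumors, against 394 and 221 in EGFP tumors, with EGFP tumor 2 lowest. The dim members showed EGFP tumor 1 apart as well. Hoxd12 read 26.4 and 15.7 in p62-EGFP tumors, against 58.1 and 14 in EGFP tumors, and Hoxd1 27.2 and 24.9, against 49.0 and 21.3.

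In cluster A, too, EGFP tumor 1 was highest for every gene. Hoxa9, a regulator of blood stem cells that is also known from leukaemia, read 1115 and 686 in p62-EGFP tumors 1 and 2, against 1367 and 1006 in EGFP tumors 1 and 2. Its other probe set averaged 266 ± 93.4 in p62-EGFP tumors and 445 ± 169 in EGFP tumors (SD, n = 2 each). Hoxa10, needed in the uterus and male genital tract, read 335 and 218 in p62-EGFP tumors, against 557 and 248 in EGFP tumors. Hoxa11 read 139.6 and 111 in p62-EGFP tumors, against 209.6 and 91.9 in EGFP tumors. In all of these EGFP tumor 1 was highest and p62-EGFP tumor 1 second, and the groups overlapped. Hoxa11os, an RNA antisense to Hoxa11, read 298 and 173.5 in p62-EGFP tumors, against 426 and 138 in EGFP tumors, the same order as Hoxa11. Hoxa5, a regulator of lung and breast development, read 316 and 218 in p62-EGFP tumors, against 425 and 196 in EGFP tumors. Hoxa3, needed for thymus and parathyroid, read 61.9 and 38.1, against 105 and 39.3, and Hoxa13, the partner of Hoxd13 in digits and genital tract, 60.7 and 34.8, against 91.3 and 36.3. The other probe set of Hoxa3 read 43.3 and 28.1 in p62-EGFP tumors, against 51.0 and 19.6 in EGFP tumors. Its group means were alike and below 50, at 35.7 and 35.3. Hoxa3, Hoxa5 and Hoxa13 again had EGFP tumor 1 at the top and p62-EGFP tumor 1 next. Hoxa7 was dim and was the only gene of cluster A whose groups did not overlap, at 4.4 and 8.1 in p62-EGFP tumors, against 18.3 and 16.1 in EGFP tumors. Hoxa4, at 37.1 and 25.4 in p62-EGFP tumors, against 44.2 and 20.6 in EGFP tumors, and Hoxa2, at 20.8 and 19.0, against 24.4 and 16.8, stayed below 50 in all 4 tumors.

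Cluster C was more even. Hoxc9, which sets thoracic identity in the spinal cord, read 85.4 and 113 in p62-EGFP tumors, against 191 and 121 in EGFP tumors, a log2 difference of -0.56 (SE 0.26, limma adjusted p = 0.397). Its groups did not overlap. Hoxc8, of the thoracic and limb level, read 127 and 98.6 in p62-EGFP tumors, against 133.5 and 79.3 in EGFP tumors. Hoxc4 read 105 and 85.2, against 99.7 and 71.1, and Hoxc6 84.1 and 104, against 129 and 85.1. For Hoxc4, Hoxc6 and Hoxc8 the groups overlapped, with log2 differences between -0.14 and 0.14. The direction for Hoxc6 depended on its 3 probe sets: the second read 91.6 and 98.5 in p62-EGFP tumors, against 98.3 and 67.4 in EGFP tumors, and the third was dim, at 2.0 and 22.9, against 10.6 and 6.9. Averaged over its probe sets Hoxc6 had a log2 difference of 0.05. Hoxc5 and Hoxc13, the last a regulator of hair, read below 20 in each tumor.

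Cluster B did not follow clusters A and D. Hoxb6 read 138.5 and 107 in p62-EGFP tumors, against 122 and 33.6 in EGFP tumors, so that EGFP tumor 2 stood alone at the bottom (log2 difference 0.74, SE 0.49, limma adjusted p = 0.519). Hoxb2, a hindbrain gene, read 148 and 201 in p62-EGFP tumors, against 155 and 116 in EGFP tumors (log2 difference 0.33, SE 0.23, limma adjusted p = 0.536). Hoxb6 and Hoxb2 were the only cluster B genes above 50, and in both the highest tumor was a p62-EGFP tumor. Hoxb9 and Hoxb3 lay just below the threshold and were lowest in EGFP tumor 2 and highest in EGFP tumor 1. Hoxb9 read 33.0 and 34.5 in p62-EGFP tumors, against 74.3 and 19.6 in EGFP tumors, and Hoxb3 32.1 and 33.1, against 60.1 and 24.6. Hoxb13, a prostate and tail-end gene, read 34.4 and 30.5 in p62-EGFP tumors, against 19.8 and 18.6 in EGFP tumors. Hoxb7, whose promoter is widely used to mark the ureteric bud of the kidney, read 9.1 and 4.7, against 4.5 and 4.4. Hoxb4, a regulator of blood stem cells, read 24.5 and 25.3 in p62-EGFP tumors, against 20.2 and 16.3 in EGFP tumors, and Hoxb1, a hindbrain gene, 6.9 and 2.4, against 0.6 in both EGFP tumors. Hoxb5 read 24.4 and 16.5, against 31.9 and 16.7. Hoxb13, Hoxb7, Hoxb4 and Hoxb1 did not overlap between the groups, all at low signal, with p62-EGFP the higher.

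For the difference between p62-EGFP and EGFP tumors, 19 of the 31 genes were bright enough to be tested, and 0 of the 19 passed (limma, two-sided, Benjamini-Hochberg adjusted p threshold of 0.05), against 0.0884% of the 13576 probe sets tested. At an unadjusted p below 0.05 the count was also 0 of 19, against 14.5% of probe sets. The adjusted p-values ran from 0.346 to 0.966. Non-overlapping groups with p62-EGFP the lower were found for 3 of the 31 genes (Hoxa7, Hoxc9 and Hoxd9), against 18.0% of all genes. With p62-EGFP the higher there were 5 (Hoxb1, Hoxb4, Hoxb7, Hoxb13 and Hoxc13), against 26.8%. The median log2 difference was -0.14 over the 31 genes and 0.03 over all genes. By cluster it was -0.26 for A, 0.26 for B, 0.06 for C and -0.36 for D, and by position -0.00 for groups 1 to 4, -0.03 for groups 5 to 8 and -0.36 for groups 9 to 13. Most genes of groups 9 to 13 lie in clusters A and D, so these medians do not separate position from cluster. Outside A and D the genes of these groups had -0.19 (Hoxb9), 0.46 (Hoxb13), -0.56 (Hoxc9) and 0.43 (Hoxc13). All 9 genes of cluster A and all 7 of cluster D had a difference below 0, against 3 of 9 in cluster B, 2 of 6 in cluster C and 5595 of the 12393 genes on the array. In cluster A this held for the brightest probe set of each gene, with Hoxa4 near 0 at -0.0016. The other probe sets had 0.07 for Hoxa3, 0.10 for Hoxa4 and -0.70 for Hoxa9. The smallest p an exact two-sided permutation test allows with these 4 tumors is 0.333. Of 8 endothelial markers, all measured, 7 had p62-EGFP the lower with no overlap, with sums of 187 and 242 in p62-EGFP tumors, against 377 and 533 in EGFP tumors, as had 5 of 6 mast cell markers, with sums of 194 and 127, against 652 and 566. Their part in the Hox values was not tested.

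**Figure D2:**
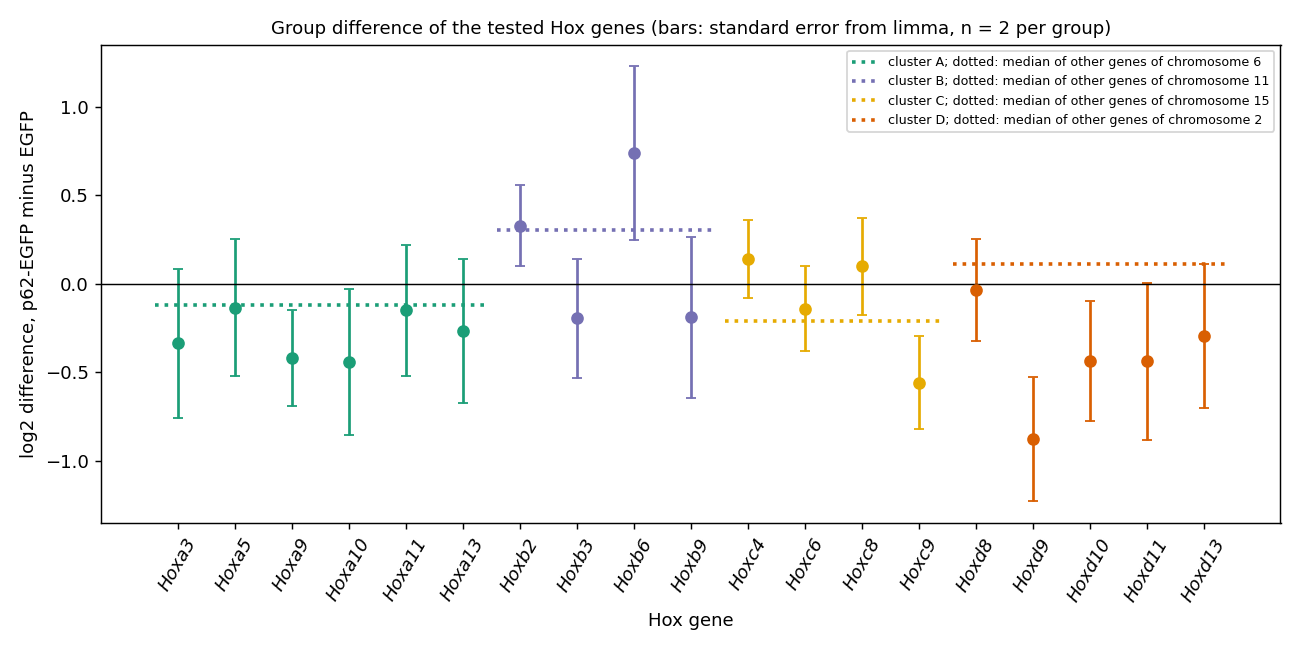
The log2 difference between p62-EGFP and EGFP tumors (vertical axis) for the 19 tested Hox genes in cluster order; points are limma estimates with bars of 1 standard error, and dotted lines give the median of the other tested genes of the same chromosome. All tested genes of clusters A and D lie below 0, from -0.03 for Hoxd8 to -0.88 for Hoxd9, and none of the 19 passed the test.

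The larger difference lay between the 2 EGFP tumors. EGFP tumor 1 exceeded EGFP tumor 2 for 30 of the 31 Hox genes, against 54.2% of all genes, and Hoxb1 was equal in both. EGFP tumor 1 was the highest of the 4 tumors for 23 of 31, against 26.4% of all genes, and for 14 of the 17 above 50, against 31.0%. The excess over EGFP tumor 2 was above 0.5 on the log2 scale for 20 of 31, against 10.2% of all genes. For 17 of 31 genes p62-EGFP tumor 1 came second to EGFP tumor 1, against 8.83% of all genes. This order was chosen for description after the values were seen, and a difference between single tumors has no replicate error, so no test is given. The median log2 excess of EGFP tumor 1 over EGFP tumor 2 was 0.72 over the 31 genes and 0.03 over all genes. It was 1.04 in cluster A, 0.80 in cluster D, 0.46 in cluster C and 0.38 in cluster B. The p62-EGFP tumors differed in the same sense and by less: tumor 1 exceeded tumor 2 for 23 of 31 genes, by a median of 0.29, against 47.1% of all genes and a median of -0.01. For all 11 genes of clusters A and D above 50, EGFP tumor 1 exceeded EGFP tumor 2 by 0.44 to 1.19 and p62-EGFP tumor 1 exceeded p62-EGFP tumor 2 by 0.18 to 0.69. In 10 of these 11, all but Hoxd9, EGFP tumor 1 was highest and p62-EGFP tumor 1 second, an order held by 10.2% of all genes above 50. In clusters B and C 1 of the 6 genes above 50 had that order. Hoxa3 and Hoxa13 were above 50 only by the mean of the EGFP group. There EGFP tumor 1 read 105 and 91.3, and EGFP tumor 2 39.3 and 36.3. Their place among the genes above 50 therefore rests on the high value in EGFP tumor 1, and they add no support to these counts.

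**Figure D3:**
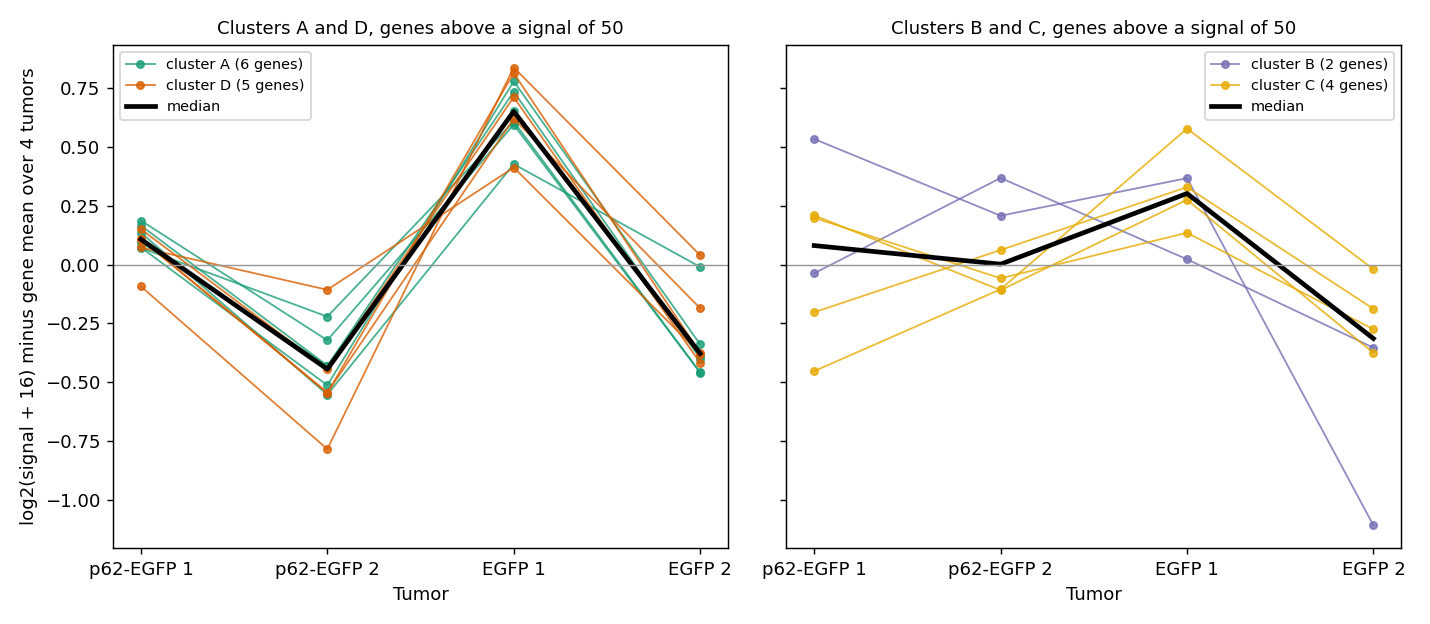
Level of each Hox gene above a signal of 50 in the 4 tumors, as log2(signal + 16) minus the gene's own mean; each thin line joins the values of 1 gene, coloured by cluster, and the black line is the median. All 11 genes of clusters A and D (left) peak in EGFP tumor 1, whereas the 6 genes of clusters B and C (right) vary less alike, with Hoxb6 lowest of all in EGFP tumor 2.

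**Figure D4:**
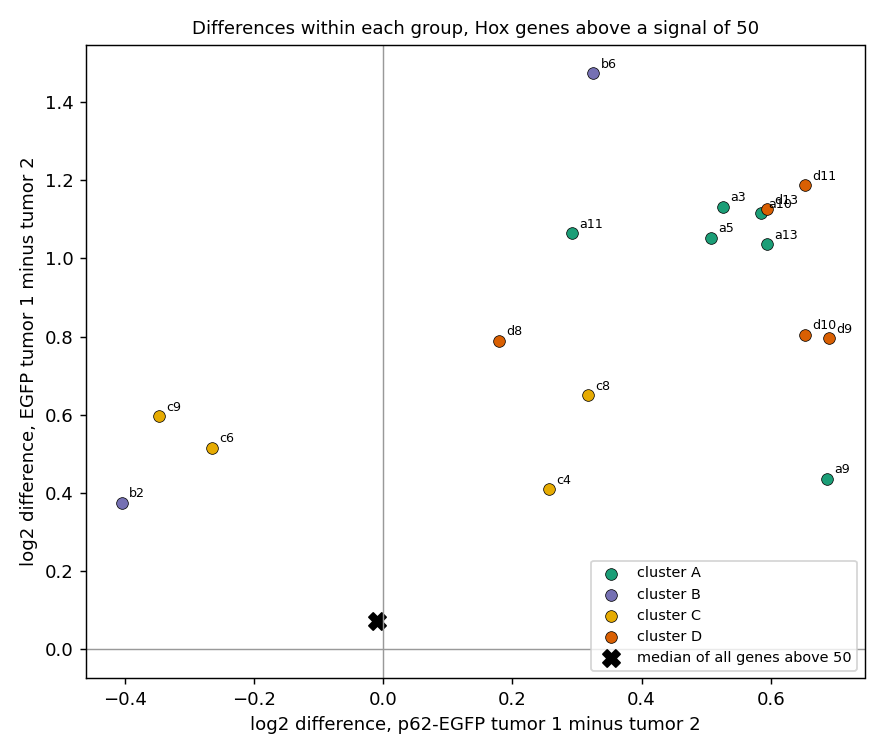
Difference within the p62-EGFP pair (horizontal axis, tumor 1 minus tumor 2, log2) against that within the EGFP pair (vertical axis, likewise) for the 17 Hox genes above a signal of 50, coloured by cluster, with the median of all genes above 50 as a cross. All 11 genes of clusters A and D lie to the right of and above 0, and Hoxb2, Hoxc6 and Hoxc9 lie to the left.

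The group comparison changed with the EGFP tumor that was kept. Without EGFP tumor 2 the median over the 31 genes was -0.63 and 9 of 21 tested genes passed as lower in p62-EGFP tumors, against 4.38% of probe sets, and 0 as higher, against 5.15%. They were Hoxa3, Hoxa10, Hoxa11, Hoxb9, Hoxc9, Hoxd9, Hoxd10, Hoxd11 and Hoxd13, and Hoxd9 had the smallest adjusted p (log2 difference -1.27, limma adjusted p = 0.0130). Without EGFP tumor 1 the median was 0.26, and 1 of 17 tested genes, Hoxb6, passed as higher in p62-EGFP tumors (log2 difference 1.48, limma adjusted p = 9.95e-04), against 11.1% of probe sets, and 0 as lower, against 9.74%. Without EGFP tumor 2 the difference of Hoxb6 was 0.0034. Of the 9 genes that passed without EGFP tumor 2, 6 (Hoxa3, Hoxa10, Hoxa11, Hoxb9, Hoxd11 and Hoxd13) had a difference above 0 without EGFP tumor 1, from 0.12 for Hoxa10 to 0.48 for Hoxb9. Both fits assume that the single remaining EGFP tumor varies like the p62-EGFP pair. Leaving out each of the 4 tumors in turn, the difference ran from -1.27 to -0.48 for Hoxd9 and from -0.86 to -0.26 for Hoxc9. For Hoxd10 it ran from -0.84 to -0.03, the last without EGFP tumor 1, and for Hoxa9 from -0.76 to -0.07, the last without p62-EGFP tumor 2.

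Other values moved with these differences. Fibroblast markers (10 of 10 measured) summed to 2238 and 3006 in p62-EGFP tumors 1 and 2, against 1104 and 3766 in EGFP tumors 1 and 2. Their sum was lowest in EGFP tumor 1 and next lowest in p62-EGFP tumor 1. In these tumors 10 of the 11 genes of clusters A and D above 50 were highest and second, respectively. Col1a2, Col3a1, Lum and Thy1 had the order of the sum. Dcn, Dpt and Fap were second highest in p62-EGFP tumor 1, and Pdgfra and Pdgfrb were lowest there. Col1a1 was next lowest in EGFP tumor 2. The macrophage and myeloid sum was also lowest in EGFP tumor 1 and next lowest in p62-EGFP tumor 1. The macrophage and myeloid sum was far highest in EGFP tumor 2. That tumor was lowest for 18 of the 31 Hox genes, Hoxb6 among them, against 35.5% of all genes. Among the 17 Hox genes above 50 it was lowest for 7, against 37.2% of all genes above 50. The epithelial sum was highest in p62-EGFP tumor 2, where 8 of the 11 genes of clusters A and D above 50 were lowest, while Krt18 alone read 545 and 627 in p62-EGFP tumors, against 730 and 254 in EGFP tumors, highest in EGFP tumor 1. The part of host cells in these differences was not tested. The other tested genes of chromosome 11, which carries cluster B, had a median log2 difference of 0.30 between p62-EGFP and EGFP tumors. The 0.26 of cluster B is a median over 9 genes of which 5 were too dim to be tested, and it was 0.44 with a pseudocount of 1 and 0.087 with 64. On chromosome 2, with cluster D, the other genes had a median of 0.11, opposite in sign to the -0.36 of cluster D, and on chromosome 6, with cluster A, -0.12. Chromosome 15, with cluster C, had -0.21. Between EGFP tumors 1 and 2 the other genes of chromosome 2 had a median excess of 0.31 in tumor 1 and those of chromosome 6 of 0.15, below the 0.80 of cluster D and the 1.04 of cluster A. These chromosome medians are over tested genes, and the cluster medians over all measured genes. Over the cluster genes above 50, all tested, the excess was 0.80 in D and 1.06 in A. Their median difference between p62-EGFP and EGFP tumors was -0.43 in D and -0.30 in A.

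The nearest measured genes outside the clusters, 5 on each side, showed smaller differences between the EGFP tumors. The median excess of EGFP tumor 1 over EGFP tumor 2 was 0.25 for the 10 neighbours of cluster A, 0.00 for those of B, 0.07 for those of C and 0.42 for those of D. Skap2, an adaptor of immune receptor signalling beside cluster A, read 567 and 454 in p62-EGFP tumors, against 908 and 881 in EGFP tumors. Its groups did not overlap, unlike those of the cluster A genes above 50, and EGFP tumors 1 and 2 were close. Mtx2, a mitochondrial import gene beside Hoxd1, read 334 and 284.5 in p62-EGFP tumors, against 314 and 258 in EGFP tumors. Cbx1, which encodes a heterochromatin protein and lies near Hoxb1, read 761 and 766, against 507.5 and 371. Skap2, Mtx2 and Cbx1 did not pass the test (limma adjusted p = 0.193, 0.798 and 0.219). Beside cluster D, Chn1, a regulator of cell signalling in neurons, read 68.8 and 58.3 in p62-EGFP tumors, against 88.4 and 39.0 in EGFP tumors, a difference of 0.92 between the EGFP tumors, and was the only one of the 40 neighbours with EGFP tumor 1 highest and p62-EGFP tumor 1 second. Ttc30b and Ttc30a1 are closely related cilium genes whose probe sets may share signal. Ttc30b read 121.5 and 123 in p62-EGFP tumors, against 114 and 48.6 in EGFP tumors, a difference of 1.01 between the EGFP tumors. Evx1 and Evx2, homeobox genes at the ends of clusters A and D, stayed below 50 in all tumors. At this low signal EGFP tumor 1 exceeded EGFP tumor 2 by 0.61 for Evx1 and 0.77 for Evx2.

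**Figure D5:**
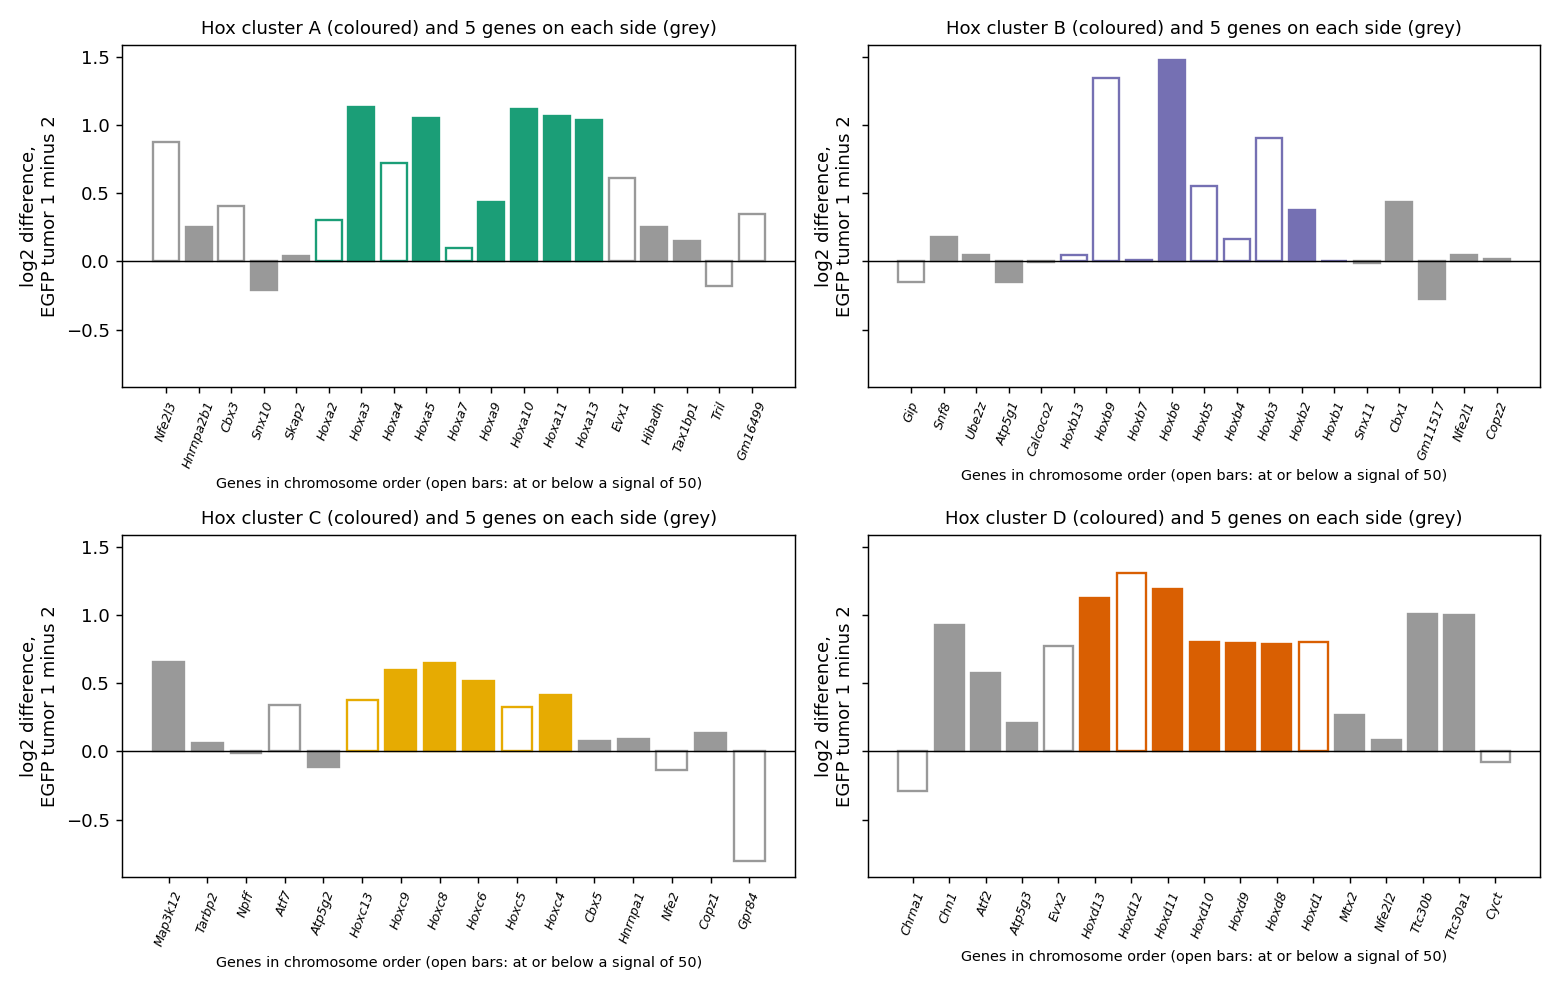
Log2 difference between EGFP tumor 1 and EGFP tumor 2 (vertical axis) for the measured Hox genes of each cluster (coloured bars) and the 5 nearest measured genes on each side (grey bars), in chromosome order; open bars are genes at or below a signal of 50. All 7 cluster D bars stand at or above 0.79 (Hoxd8). Among its neighbours Chn1, Ttc30b and Ttc30a1 reach a similar height, as does the open bar of Evx2 (0.77).

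Genes that act with Hox proteins or control them were examined as lists, none of whose members passed the test. TALE homeodomain proteins bind DNA together with Hox proteins. Of 9 listed cofactors 8 were measured and 5 tested, with 0 passing and 0 at an unadjusted p below 0.05 in limma, and EGFP tumor 1 was highest for 6 of 8, against 26.4% of all genes. Pknox1 read 138 and 141.5 in p62-EGFP tumors, against 252 and 151 in EGFP tumors, and its groups did not overlap. It was the 1 of 8 with p62-EGFP the lower and no overlap, against 18.0% of all genes. Pknox2, which was dim, was the 1 with p62-EGFP the higher, against 26.8%. Meis2 read 72.4 and 53.4, against 119 and 56.7. Pbx2 read 81.3 and 84.7, against 116 and 75.3, and Meis3 44.0 and 38.9, against 43.9 and 42, both with overlapping groups.

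Polycomb proteins keep silent Hox genes repressed. Of 28 listed subunits 24 were measured and 22 tested, and 0 passed (limma, 4 of 22 at an unadjusted p below 0.05, against 14.5% of probe sets, smallest adjusted p = 0.240). Of the 24, 4 had p62-EGFP the lower with no overlap, against 18.0% of all genes, and 6 the higher, against 26.8%, shares near those of all genes. Suz12, a core subunit of the complex that methylates histone H3 lysine 27, read 751 and 764 in p62-EGFP tumors, against 558 and 537.5 in EGFP tumors. Jarid2, which recruits that complex, read 197 and 179, against 305 and 281. Rbbp7, a histone-binding subunit, read 2320 and 2347, against 1973 and 1979, and Cbx8, of the complex that binds the mark, 56.1 and 66.6, against 41.2 and 28.1. Suz12 and Jarid2 were close between the tumors of a group, unlike most Hox genes of clusters A and D, but the list as a whole was not. EGFP tumor 1 exceeded EGFP tumor 2 for 21 of the 24, against 54.2% of all genes, by a median of 0.32. It was highest for 12 of 24, against 26.4%, and EGFP tumor 2 was lowest for 15, against 35.5%. In 4 of 24, Ezh2 and Bmi1 among them, p62-EGFP tumor 1 came second to EGFP tumor 1, against 8.83%. Of 20 listed trithorax and MLL complex genes, H3K27 demethylases among them, 15 were measured and 14 tested, and 0 passed (limma, 3 of 14 at an unadjusted p below 0.05, against 14.5% of probe sets, smallest adjusted p = 0.261). Kdm6a, a demethylase that removes the Polycomb mark, read 338 and 299.5 in p62-EGFP tumors, against 219 and 210.2 in EGFP tumors. Ash2l, a core subunit of MLL complexes, read 209 and 266.5, against 352 and 309. Aff4, of a transcription elongation complex joined to MLL in leukaemia, read 522 and 627, against 414 and 375, and its relative Aff1 152 and 160.1, against 211.5 and 216. For Kdm6a, Ash2l, Aff4 and Aff1, the 4 genes of smallest p in this list, the groups did not overlap. Of the 15 measured genes, 3 had p62-EGFP the lower with no overlap, against 18.0% of all genes. With p62-EGFP the higher there were 2, against 26.8%, and in the other 10 the groups overlapped. EGFP tumor 1 exceeded EGFP tumor 2 for 13 of these 15 genes, against 54.2% of all genes, and was highest for 8, against 26.4%.

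Cdx proteins and retinoic acid switch on Hox genes in the embryo. Of 20 listed genes 18 were measured and 7 tested, and 0 passed, also at an unadjusted p below 0.05 (limma, smallest adjusted p = 0.409). The retinoic acid receptor Rarg read 66.6 and 71.3 in p62-EGFP tumors, against 124.5 and 80.1 in EGFP tumors, and its partner Rxra 57.8 and 64.8, against 93.0 and 76.4. For both genes the groups did not overlap. They were the 2 of 18 with p62-EGFP the lower and no overlap, against 18.0% of all genes. With p62-EGFP the higher there were 6, against 26.8%: Cdx2, Cdx4, Crabp1, Crabp2, Rdh10 and Stra6. All of these but Rdh10 were below 50 in every tumor. Aldh1a1, which makes retinoic acid, read 36.5 and 23.7, against 14.2 and 180.4, with EGFP tumor 2 standing alone, and the receptor Rxrb 305 and 322, against 370.2 and 305.5.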

How the data were processed

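The labels and design text describe total RNA of 4 tumors, 1 Affymetrix Mouse Genome 430A 2.0 array each. The deposited values are signal intensities on a linear scale, for which MAS5 is named per the submitters' processing notes, without a version. Trimmed by 2% at both ends, every array had a mean of 150.04, and values were used as deposited. Of 22690 probe sets 64 controls were left out. Genes were named from the platform annotation; 38 probe sets had 1 Hox symbol and 3 had several and were not used. RefSeq tables of GRCm38.p6 gave chromosome, gene order and promoters. Signals were taken as log2(signal + 16), which understates the change of dim genes. Probe sets with a mean at or above the 40th percentile (5.605) were tested with limma 3.58.1 (lmFit, eBayes with trend) in R 4.3.3, adjusted over 13576 probe sets, with 2 residual degrees of freedom. The fit was tested on simulated data. Figures used Python 3.11.15 and matplotlib 3.10.9. The Hox genes and all lists were chosen with earlier results of these data known. Named were Hox genes above 50 in either group, the 3 nearest to that threshold on each side, the 4 genes of smallest p in each companion list, and cluster neighbours; other genes were chosen after their values were seen. The number of arrays limits the precision. Alternatives covered scaling, pseudocount, filter, variance model, replicate block, probe set choice, threshold and leaving out tumors.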

Additional observations from a re-analysis of the deposited data

How the results depend on the processing

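The 0 Hox genes passing stayed 0 with quantile normalization, median centring, pseudocounts of 1 and 64, no filter, the 60th percentile filter, no intensity trend and the mean over probe sets; leaving out tumors gave 0 to 9. The tumors share only a number (same-numbered tumors deviated together with r = 0.0823 over 13576 probe sets); with the replicate block 0 Hox genes passed (smallest limma adjusted p = 0.148) and 37 probe sets of the whole table, against 12 without it. That count was 6 with no filter, 7 with the 60th percentile filter and 0 to 2835 leaving out tumors (2835 leaving out EGFP tumor 1, 1294 leaving out EGFP tumor 2). The median of cluster B was 0.44 with a pseudocount of 1 and 0.087 with 64. Leaving out tumors, medians ran from -0.63 to 0.26 over all Hox genes, -0.66 to 0.23 for cluster A, 0.14 to 0.34 for B, -0.18 to 0.27 for C and -0.86 to 0.17 for D. They ran from -0.17 to 0.31 for positions 1 to 4, -0.40 to 0.19 for 5 to 8 and -0.86 to 0.26 for 9 to 13. With the mean over probe sets the median of positions 1 to 4 turned from -0.0016 to 0.0477. That of positions 5 to 8 turned from -0.0344 to 0.0274. The count above 50 in cluster B was 5 at a threshold of 30, 1 in every tumor and 2 to 4 leaving out tumors, with 4 without EGFP tumor 2. Turns of sign were seen for Hoxc6 over all probe sets (0.0484), for Hoxd8 with median centring (0.0038) and on leaving out tumors. Those ranges were -0.90 to 0.23 for Hoxa3, -0.66 to 0.39 for Hoxa5, -0.997 to 0.12 for Hoxa10, -0.68 to 0.38 for Hoxa11, -0.78 to 0.26 for Hoxa13, -0.65 to 0.26 for Hoxb3 and -0.86 to 0.48 for Hoxb9. They were -0.0649 to 0.34 for Hoxc4, -0.40 to 0.12 for Hoxc6, -0.22 to 0.42 for Hoxc8, -0.43 to 0.36 for Hoxd8, -1.03 to 0.16 for Hoxd11, -1.02 to 0.29 for Hoxd12 and -0.86 to 0.27 for Hoxd13. Dim probe sets limit what can be said of cluster B, where 5 of 9 genes were not tested.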

Other observations

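Genes of kidney development that act with or below Hox genes were dim by group mean, though Itga8, Gata3 and Eya1 read above 50 in single tumors. Of 13 listed genes 11 were measured, none had a group mean above a signal of 50, and 0 of the 4 tested passed (limma, 0 at an unadjusted p below 0.05). Itga8, an integrin gene that Hox11 proteins regulate in the mouse metanephros, read 51.8 and 29.6 in p62-EGFP tumors 1 and 2, against 71.7 and 17.2 in EGFP tumors 1 and 2. EGFP tumor 1 was highest and p62-EGFP tumor 1 second, as for 10 of the 11 Hox genes of clusters A and D above 50, but EGFP tumor 2 was lowest, as for only 3 of those 11. Six2, a marker of nephron progenitors and another such gene, read 47.4 and 48.4 in p62-EGFP tumors, against 42.7 and 36.5 in EGFP tumors. Gata3, a ureteric bud regulator, read 30.2 and 28.3, against 51.8 and 38.4, and Eya1 42.7 and 45.1, against 38.3 and 51.1.

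The 8 homeobox genes linked to the Hox clusters, Evx1, Evx2 and Dlx1 to Dlx6, were all measured, and none had a group mean above 50 or was bright enough to be tested. Dlx2 read 18.0 and 23.6 in p62-EGFP tumors, against 12.9 and 23.0 in EGFP tumors.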
